A study of Mus musculus with 92 samples.

Results

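RNA sequencing of bone marrow-derived (BMD) cells was compared between 2 settings: microglia-like cells (MLCs) recovered from brains that had received bone marrow, and macrophages grown from bone marrow in culture. Every library labelled as BMD MLCs, replicates 1 to 6, or as BMD macrophages at 7 days in vitro, replicates 1 to 3, was included, which made 9 of the 92 samples of the series. The comparison asks which transcripts set bone marrow progeny apart after they have settled in a brain that lacks microglia from those that matured in a dish.

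Bone marrow of wild-type FVB mice was the source of the 3 macrophage libraries, and the cells spent 7 days in medium with 30 ng/mL M-CSF, the main growth factor of macrophages. For the 6 MLC libraries, bone marrow cells labelled wild type were injected into the brains of Csf1r-/- pups of the FVB background on postnatal day 0 to 5. The study shows brains that received GFP+ bone marrow, and took GFP-expressing donor cells from Osb-GFP transgenic mice backcrossed onto FVB. The titles of the MLC libraries name no transgene. Csf1r encodes the M-CSF receptor, and mice without it have no microglia, so that donor cells find the niche empty. Both groups are labelled wild type, which describes the donor cells, and neither carries a drug treatment in its labels. The labels give no day of harvest, no sex and no number of animals per library. The methods of the study put harvest at 12 to 16 days after injection as a rule. Its authors looked for batch effects of harvest day, sorter and host sex and report that they saw none. The labels do not give these 3 items for each library. MLCs were sorted as live CD45+ CD11B+ cells from perfused and homogenized brain, a gate that also takes neutrophils and monocytes. The labels name no gate for donor cells, whereas the study refers, beside its sequencing, to a gating panel of transplanted cells that was pre-gated on GFP. Sorted cells went into TRIzol LS and through an RNeasy Micro column, whereas cultured cells went through an RNeasy Mini kit. The brain, the dissociation, the sort and the extraction therefore changed together between the groups, and their effects cannot be told apart.

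Microglia are the resident macrophages of the brain and descend from yolk sac progenitors, not from bone marrow. In a healthy brain they carry genes such as P2ry12, Tmem119 and Sall1, and TGF-beta from the tissue is needed to keep that profile. Macrophages in M-CSF culture divide, take up lipid and build a large lysosomal compartment, and microglia placed in culture soon lose their tissue profile.

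Values are the deposited log2 CPM (counts per M after the authors' TMM normalization), in which -3.62 is the lowest possible value and stands for no count. A log2FC is the mean of the 6 MLC libraries minus the mean of the 3 macrophage libraries. Depth per library, and with it each lower bound on a fold, was inferred from the lowest value with an assumed prior count of 2. Depth was 24.8, 43.9 and 25.2 M counts in the macrophage libraries and 17.4, 23.2 and 26.9 M (lowest, median and highest) in the MLC libraries, with an exact two-sided permutation p of 0.19. At these depths 3 counts correspond to 0.0829 to 0.1368 CPM, and folds against a group with no more than 3 counts in any library are given as lower bounds from that level, for counting error alone. Summed over all genes, normalized CPM came to 1.13, 1.21 and 1.09 M in the macrophage libraries and to 0.709 to 0.916 M in the MLC libraries (exact permutation p 0.024, the smallest that the 84 assignments of 6 libraries against 3 can give).

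Both groups expressed macrophage genes, read from a list that holds Itgam and Ptprc. These encode CD11B and CD45, on which the MLCs were sorted, so the list is no independent check of their label. Mean log2 CPM over 13 macrophage genes, among them Csf1r, Itgam, Cd68 and Trem2, was 9.46, 8.39 and 9.44 in the macrophage libraries and 9.37, 9.48 and 9.71 (lowest, median, highest) in the MLC libraries. Mean log2 CPM over the 10 genes of a microglia signature was 2.73, 1.21 and 3.76 in culture and 7.49, 8.76 and 9.03 in the brain. Every MLC library thus lay above every cultured one in the mean of the microglia genes, while the groups overlapped in the mean of the macrophage genes. Taken singly, 7 of the 13 macrophage genes did not overlap between the groups, where 44.2% of all genes tested did not. Sall1, a transcription factor that marks microglia, stayed low in both groups and was below the limit for testing. It stood at -2.97, -2.50 and -1.75 log2 CPM in culture and at -1.26, -0.07 and 0.79 in MLCs, against a mean of 8.60 in the 9 libraries of wild-type microglia.

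A pair of libraries stood somewhat apart before any gene was considered. Over the genes tested, the mean Euclidean distance of MLC replicate 3 from the other MLCs was 178, against 113 to 130 for the rest, and this replicate was also low in Y-linked genes. Macrophage replicate 3 lay 134 and 154 from replicates 1 and 2, which lay 98.9 from each other. The column of that macrophage library is named wBM_1, whereas the others are Mac1 and Mac3, under titles that differ only in replicate number. Between the groups, distances ran from 210 to 305 (median 235), above all those within the MLCs (80.8 to 190, median 118) and within the macrophages (98.9 to 154, median 134).

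The MLC libraries also held transcripts of other blood cells. Counts of markers that rose or fell (adjusted p below 0.05) are read against the 17.4% and 14.7% of all genes tested that did. Neutrophil markers summed to 52.5, 42.0 and 26.3 CPM in the macrophage libraries. In MLC replicates 1 to 6 they summed to 8670, 5100, 33400, 35600, 35400 and 34700 CPM, or 0.721% to 3.99% of a library. Ngp, a granule protein, was the most abundant at a mean of 9540 CPM, 9 of 11 neutrophil markers rose, and none was without counts in all MLC libraries. Neutrophil transcripts were thus present in all 6 MLC libraries and lower in replicates 1 and 2, whereas Mpo and Elane, which mark immature granulocytes, did not pass the test. In the 9 microglia libraries, sorted from brain as well, the same sum had a median of 2130 CPM.

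Monocyte markers showed the same direction, with sums of 45.7, 61.9 and 117 CPM in culture against 571, 379, 781, 964, 1530 and 1130 CPM in MLC replicates 1 to 6. Cd177, a surface protein shared with neutrophils, led that list at 458 CPM, 5 of 9 tested members rose, and Ace had no more than 3 counts in any MLC library. Lymphocyte markers summed to 7.74, 7.21 and 1.86 CPM in culture and to 35.2, 44.5, 202, 160, 157 and 131 CPM in the MLCs. Cd79b, part of the B cell receptor, was the most abundant of them at 66.2 CPM and 5 of 6 tested members rose, but Cd3g, Nkg7 and Klrb1c did not pass without macrophage replicate 3 (2 of 6 left, and 3 with log2(CPM + 1) or quantile normalization), and Cd3g did not without macrophage replicate 1 or 2 or MLC replicate 1, 4, 5 or 6. Cd3g also missed with the replicate block (adjusted p 0.0616), no filter on low values (0.0752) or the filter of 6 libraries (0.0513). Neither Cd79b nor Cd3g nor Nkg7 passed in MLC replicates 1 and 2 alone. Dendritic cell markers summed to 2.72, 7.11 and 3.94 CPM against 161, 196, 310, 218, 218 and 209 CPM, and 5 of 7 tested members rose. Siglech, which is a microglia gene as well, made up most of that sum at 131 CPM, and Clec9a was at the floor in all MLC libraries. Erythroid markers varied most, with 4.09, 4.42 and 0.322 CPM in culture and 461, 26.6, 125, 865, 519 and 340 CPM in the MLCs. Hba-a2, a globin, led at 136 CPM and 4 of 5 tested members rose, Slc4a1 was at the floor in all MLC libraries, and counts of near-identical globin copies are uncertain.

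Brain cell markers were scarce, and the counts that follow are read against the same 17.4% and 14.7% of all genes tested. Neuron markers summed to 0.485, 1.22 and 1.83 CPM in culture and to 9.95, 6.64, 7.36, 6.32, 5.82 and 7.74 CPM in MLC replicates 1 to 6. Syp led at 1.78 CPM, 3 of 4 tested members rose, and Rbfox3, Slc17a7 and Slc17a6 were at the floor in every MLC library. Oligodendrocyte lineage markers summed to 181, 166 and 212 CPM in culture and to 136, 99.5, 42.1, 68.4, 112 and 107 CPM in the MLCs. Cnp, which macrophages express too, was the most abundant, with means of 124 and 33.2 CPM, and did not pass (log2FC -1.94, adjusted p 0.137). It fell in the fit of only the 9 libraries (adjusted p 0.00026), with library weights (3.7e-05) and without microglia replicates 8 and 9 (0.0402). Of 5 tested members 2 rose (1 without any one of the macrophage libraries or MLC replicate 1, 5 or 6 or after quantile normalization, 0 with log2(CPM + 1)), none fell, and Mog, Olig2 and Cspg4 were at the floor. Astrocyte markers summed to 84.6, 72.5 and 103 CPM in culture and to 34.9, 29.3, 45.5, 27.1, 34.1 and 40.5 CPM in the MLCs, led by Aldoc at 16.6 CPM, with Aqp4 at the floor and 3 of 9 tested members higher and 1 lower. Endothelial and mural markers gave 11.7, 23.2 and 76.4 CPM in culture and 31.7, 30.5, 31.2, 36.4, 17.4 and 34.3 CPM in the brain. Pecam1 led at 17.9 CPM, 2 of 6 tested members rose, 1 fell, and Cldn5, Cdh5, Tek, Slco1a4 and Cspg4 were at the floor in all MLC libraries. Pecam1 did not pass without macrophage replicate 1 or 3 or MLC replicate 4. It also missed in the fit of only the 9 libraries (adjusted p 0.0609) and in MLC replicates 1 and 2 alone. Fibroblast markers stayed at or below 3.17 CPM in all 9 libraries, with Col1a1 the most abundant at 1.08 CPM, Col3a1 and Lum at the floor and no tested member past the threshold. Progenitor and mast cell markers summed to 43.0, 19.8 and 165 CPM in culture and to 52.1, 104, 166, 133, 184 and 113 CPM in the MLCs, led by Cd34 at 45.4 CPM, with Mcpt4 and Cma1 at the floor and 0 of 4 tested members past the threshold, although Cd34 rose without macrophage replicate 3 (adjusted p 0.046). Y-linked genes summed to 3.01, 3.69 and 1.42 CPM in culture and to 461, 529, 10.9, 331, 235 and 284 CPM in the MLCs, and 4 of 4 rose, with Ddx3y the most abundant at 145 CPM. The part that these other cells and the sex of donor or host have in the results that follow was not tested, and in bulk RNA fewer cells of a type cannot be told apart from less RNA per cell.

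**Figure D1:**
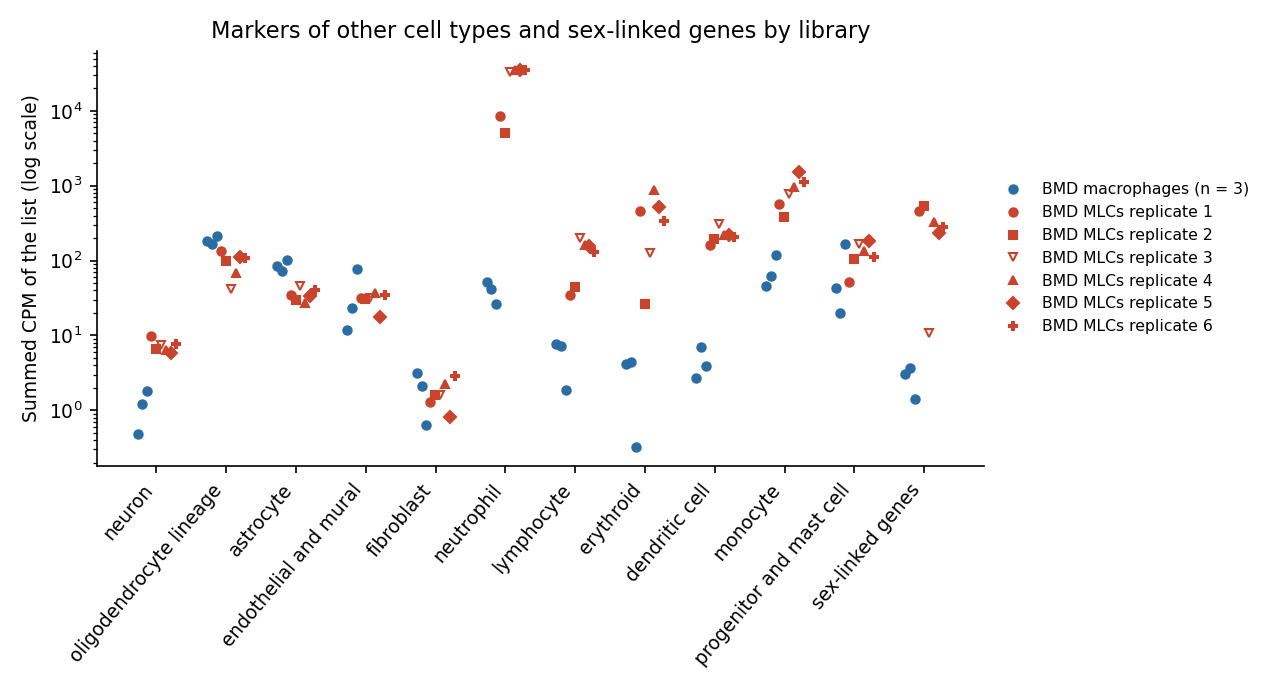
Summed CPM (log scale) of marker lists for other cell types and of Y-linked genes in each library, with 3 BMD macrophage libraries (circles) and 6 BMD MLC libraries (1 symbol each, replicate 3 open). Neutrophil markers lie between 5100 and 35600 CPM in the MLCs and at 52.5 CPM or less in the macrophages.

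Brain and culture differed over a large part of the genome. A gene was called a DEG when its adjusted p (limma, Benjamini-Hochberg) was below 0.05 and its log2FC at least 2 in either direction. Of 12061 genes tested, 2021 were DEGs (16.8%), 1214 of them higher in MLCs (10.1%) and 807 lower (6.69%). At any size of change, 2103 genes rose (17.4%) and 1771 fell (14.7%), and the words rose and fell are used below for these calls. All 6 MLC libraries lay on one side of all 3 macrophage libraries for 5335 genes (44.2%) and for 1829 of the DEGs. Over all genes tested the median log2FC was -0.05, and each list is read against that value and the shares that rose and fell. Changes were often large, with 198 genes higher and 121 lower by a log2FC of at least 5, and 143 higher DEGs had no more than 3 counts in any macrophage library.

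The balance of direction depended on how libraries were scaled. When each library was rescaled to the same total CPM, the median log2FC moved from -0.05 to 0.40 and the split became 1752 higher and 526 lower, and with log2(CPM + 1) it became 679 higher and 847 lower, against 1214 and 807. Without macrophage replicate 3 there were 1474 DEGs in all (898 higher, 576 lower), 1349 of them shared with the 2021, while 1370 genes rose and 1139 fell. In MLC replicates 1 and 2 alone, the libraries with the least neutrophil signal, there were 675 higher and 462 lower DEGs, and 1019 of the 2021 were shared, each with the same sign. With only 2 MLC libraries a call can be lost at a log2FC of the same size, so that a lost call there does not stand for a smaller change. The study calls its replicates biological, but the labels do not say whether each came from a separate animal, so the p-values measure the spread between samples only. That spread was pooled over the 27 libraries of 5 groups, so ER-Hoxb8 and microglia libraries outside the comparison enter each SE and p-value. In the fit of only the 9 libraries 2765 genes rose and 2901 fell, against 2103 and 1771.

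**Figure D2:**
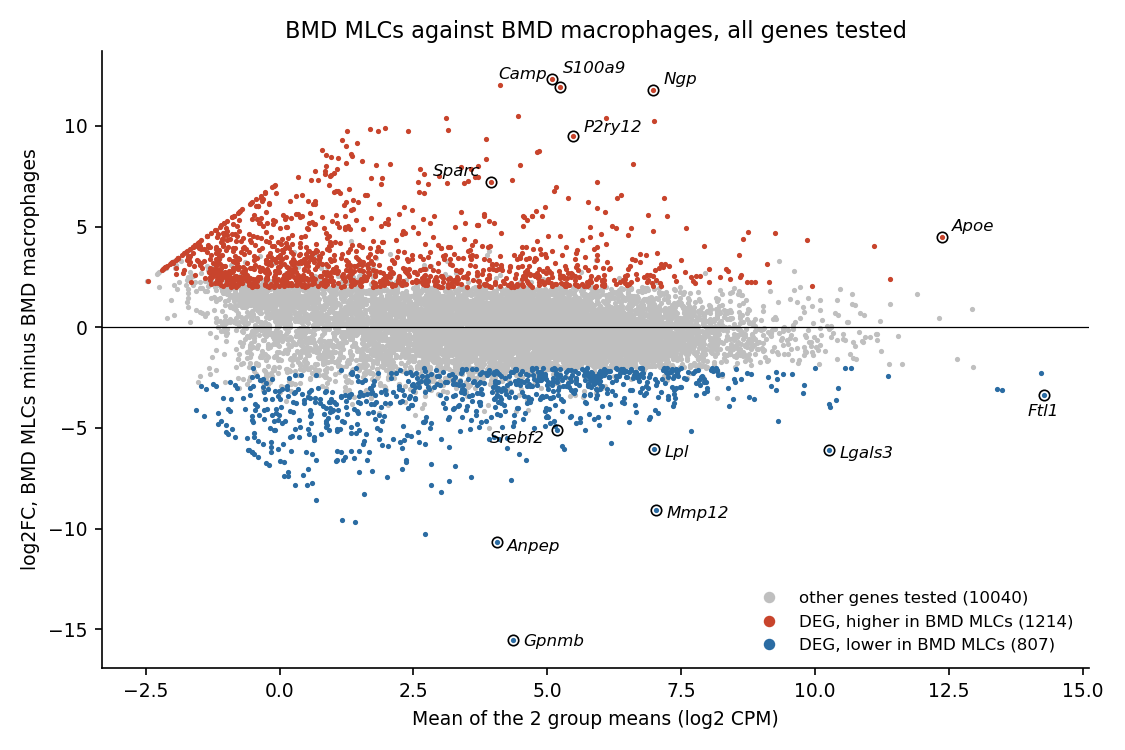
Difference between BMD MLCs (n = 6) and BMD macrophages (n = 3) in log2 CPM for each gene tested, against the mean of the 2 group means, with DEGs in color. The 1214 higher and 807 lower DEGs spread over the whole range of expression.

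Of the 15 genes that rose most, 6 are on the neutrophil marker list and 1, P2ry12, is on the microglia signature. S100a9, a calcium-binding protein that makes up much of the neutrophil cytosol, was at -0.09, -0.59 and -2.57 log2 CPM in culture and at 9.20, 11.99 and 12.36 in MLCs (lowest, median, highest). Its log2FC was 12.34 ± 1.26 (SE; adjusted p 8.48e-08), and 6 of 6 MLC libraries were above every macrophage library. Its partner S100a8 and the granule genes Ngp, Camp, Ltf, Lcn2 and Pglyrp1 behaved alike, with log2FC from 9.82 (Lcn2) to 11.94 (Camp). Retnlg rose by 12.04 ± 1.28 and Chil3, a chitinase-like protein of neutrophils and some macrophages, by 10.40 ± 1.31. Wfdc21 was at least 1120-fold higher in MLCs, Crispld2 at least 824-fold and Lrg1 at least 695-fold, since the macrophage libraries held no more than 3 counts of each. The Mas-related receptor gene Mrgpra2b had a log2FC of 9.75 ± 1.39. Amica1, an adhesion molecule of leukocytes, had 9.73 ± 1.19 and stood at 10.43 in MLC replicate 1 against 5.57 to 7.25 in the others. S100a9, S100a8, Ngp, Camp, Ltf and Retnlg are the members of the neutrophil marker list, whose sum was lowest in MLC replicates 1 and 2, and all of them kept their calls in those replicates alone.

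The 15 genes that fell most were of several kinds. Gpnmb, a glycoprotein of lysosomes and the cell surface that the factor MITF controls, was at 13.59, 14.29 and 8.48 log2 CPM in culture and at -3.62, -3.62 and -2.33 in MLCs. It passed from one of the most abundant transcripts to almost none, with a log2FC of -15.52 ± 1.37 (adjusted p 8.62e-09) and 6 of 6 MLC libraries below all macrophage libraries. Mmp12, the elastase of macrophages, was at 12.46, 13.06 and 9.12 in culture and 1.58, 2.45 and 3.62 in MLCs. Its log2FC was -9.05 ± 0.74 (adjusted p 2.2e-09), again with 6 of 6 libraries lower. Anpep, a surface aminopeptidase, fell by 10.68 ± 1.23 on the log2 scale, and Id3, an inhibitor of helix-loop-helix factors, by 10.26 ± 1.40. The neuropeptide gene Npy was at least 662-fold lower in MLCs, Stac2 at least 786-fold, the lysosomal channel gene Mcoln3 at least 313-fold, the phosphodiesterase Pde1c at least 306-fold and Flrt2 at least 154-fold. Atp6v0d2, a proton pump subunit typical of osteoclasts and multinucleated macrophages, fell by 8.20 ± 1.23 and stood at 2.70 in macrophage replicate 3 against 9.18 and 9.47 in the others. Capn5, Lat, Ikbke, Plk2 and Cdk18 completed the list, with log2FC from -8.28 to -7.42. Macrophage replicate 3 was the lowest cultured library in Gpnmb, Anpep, Stac2, Mmp12, Mcoln3, Atp6v0d2, Lat, Ikbke, Plk2 and Cdk18. It was the highest in Id3, Npy, Capn5, Flrt2 and Pde1c, and above every MLC library in all 15.

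Microglia genes were among those that rose. Of the signature, 8 of 9 tested genes rose and none fell, with a median log2FC of 6.56 and the same 8 calls without any single library and in MLC replicates 1 and 2 alone. P2ry12, the ADP receptor that guides microglial processes, was at 0.45, -1.60 and 3.31 log2 CPM in culture and at 8.11, 10.72 and 11.39 in MLCs. Its log2FC was 9.50 ± 0.98 (adjusted p 8.86e-08), 6 of 6 MLC libraries were higher, and wild-type microglia averaged 14.38. Sparc, a matrix protein secreted by microglia, was at 0.07, -0.38 and 1.35 in culture and at 5.65, 8.00 and 8.52 in MLCs (log2FC 7.19 ± 0.79, adjusted p 2.57e-07, 6 of 6 higher), below the 13.01 of microglia. The lectin Siglech rose by 7.15 ± 0.76, Olfml3 by 5.79 ± 0.85 and the receptor P2ry13 by 6.43 ± 0.97, all in 6 of 6 libraries. Tmem119, whose function is little known, had a log2FC of 6.56 ± 1.11 and was lowest in MLC replicate 3, at 7.74 against 9.60 to 10.49 in the others. Gpr34, a lysophospholipid receptor, rose by 8.13 ± 0.91. Fcrls did not pass (log2FC 2.72, adjusted p 0.131) and its groups overlapped. It passed in the fit of only the 9 libraries (adjusted p 0.011) and with library weights (0.0175).

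Other genes of homeostatic microglia rose too, 15 of 23 tested, with none falling and a median log2FC of 2.48. Crybb1, a crystallin gene, was at -3.62, -3.14 and -1.64 log2 CPM in culture and at 3.57, 4.94 and 5.50 in MLCs. With a log2FC of 7.49 ± 0.80 (adjusted p 1.47e-07, 6 of 6 higher), it went from little or no signal to a moderate level. Cst3, the secreted protease inhibitor cystatin C, rose by 2.42 ± 0.40 from a high level in culture, Rnase4 by 4.74 ± 0.75 and the Golgi protein Golm1 by 3.01 ± 0.73. Cx3cr1, the fractalkine receptor, did not pass (log2FC 3.27, adjusted p 0.0759), and macrophage replicates 1 and 3 stood at 9.66 and 10.43, within or near the MLC range, and replicate 2 at 2.97. It passed without macrophage replicate 3 (adjusted p 0.0362), after quantile normalization (0.0482) or rescaling (0.0483) and with library weights (0.0129). Among MLC replicates 1 and 2 alone, 9 of these genes rose.

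**Figure D3:**
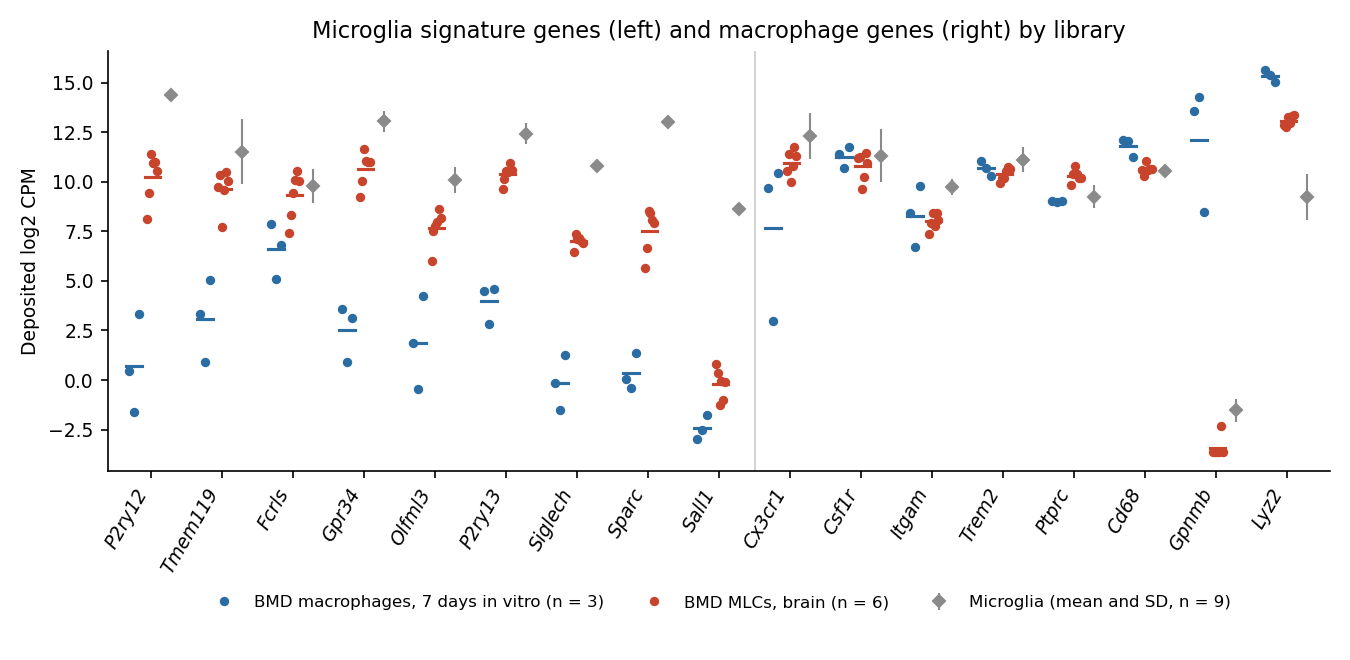
Deposited log2 CPM of microglia signature genes named in the text and of general macrophage genes in each library of BMD macrophages (n = 3) and BMD MLCs (n = 6), with bars at the means, and the mean and SD of 9 microglia libraries. P2ry12 lies between 8.11 and 11.39 in MLCs and at or below 3.31 in the macrophages.

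Of 13 general macrophage genes tested, 3 rose (6 after rescaling, 5 after quantile normalization) and 1 fell (2 without macrophage replicate 2), and the median log2FC of -0.29 became 0.03 after quantile normalization and 0.16 after rescaling. Csf1r was at 11.39, 10.69 and 11.73 log2 CPM in culture and at 9.62, 11.06 and 11.43 in MLCs (log2FC -0.49, adjusted p 0.70), so the groups overlapped. Trem2, a lipid-sensing receptor, and Itgam, which encodes CD11B, were likewise not past the threshold. Cd68, a lysosomal glycoprotein, fell by 1.17 ± 0.29 (adjusted p 0.00297) in 6 of 6 libraries, while Ptprc, which encodes CD45, rose by 1.27 ± 0.34 (adjusted p 0.00598) in 6 of 6. Ptprc did not pass in MLC replicates 1 and 2 alone (log2FC 1.07, adjusted p 0.127). Both CD45 and CD11B were part of the sort of the MLCs and not of the cultured cells.

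Among transcription factors of macrophages and microglia, 10 of 25 tested rose and 3 fell (median 0.91). Ahr, the aryl hydrocarbon receptor, was at 1.45, 2.00 and -0.69 log2 CPM in culture and 4.39, 4.92 and 5.93 in MLCs. It rose by 4.08 ± 0.86 (adjusted p 0.000856) in 6 of 6 libraries, and Batf3 rose by 3.71 ± 0.62. Nr1h3, which encodes the oxysterol receptor LXR alpha, fell by 5.62 ± 1.40 (adjusted p 0.00345), from 5.89, 6.59 and 2.93 to -3.62, 0.06 and 0.87, with 6 of 6 MLC libraries lower. Bhlhe40, a helix-loop-helix repressor, fell by 3.09 ± 0.83, but did not pass in MLC replicates 1 and 2 alone (log2FC -2.20, adjusted p 0.158). The number that rose was 6 without macrophage replicate 2 or 3 or without MLC replicate 3 or 4.

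In the TGF-beta pathway, 6 of 26 tested members rose and 1 fell (median 0.28), where 17.4% and 14.7% of all genes tested did. The receptor gene Tgfbr1 was at 8.27, 8.32 and 8.19 log2 CPM in culture and at 9.89, 10.10 and 10.24 in MLCs. It was thus tightly grouped on both sides and rose by 1.81 ± 0.44 (adjusted p 0.00271) in 6 of 6 libraries, though in MLC replicates 1 and 2 alone adjusted p was 0.0597 at a log2FC of 1.74. Of the other members, Smad7 rose by 2.42 ± 0.43, Ski by 1.45 ± 0.28, Smurf2 by 2.01 ± 0.41 and Pmepa1 by 5.27 ± 0.70. Ltbp3, a protein that holds latent TGF-beta in the matrix, was the member that fell, by 3.30 ± 0.86 (-3.05 and adjusted p 0.0504 in those replicates alone), and 19 members did not pass.

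Genes of macrophages at the borders of the brain rose in part, 9 of 22 tested, with 2 falling and a median log2FC of 1.55. Lyve1, a hyaluronan receptor, and Cd209d, a lectin, had no more than 3 counts in any macrophage library and were at least 37.4-fold and at least 38.5-fold higher in MLCs. Ccl24, an eotaxin, rose by 5.42 ± 0.87, from -3.62, -1.93 and -3.62 to 0.69, 2.56 and 3.61 log2 CPM (adjusted p 4.95e-05, 6 of 6 higher). These transcripts were present in all MLC libraries at low levels. Siglec1, or sialoadhesin, fell by 2.20 ± 0.52. With MLC replicates 1 and 2 alone 3 members rose and none fell, and neither Lyve1 nor Cd209d passed.

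Antigen presentation by MHC class II rose, with 7 of 9 tested genes higher, none lower and a median log2FC of 3.46. H2-Aa, the alpha chain of I-A, was at 3.60, 4.20 and 3.64 log2 CPM in culture and at 7.63, 8.98 and 9.62 in MLCs. The groups lay far apart, with a log2FC of 4.94 ± 0.55 (adjusted p 2.66e-07) and 6 of 6 libraries higher. Cd74, the invariant chain, rose by 4.67 ± 0.63, H2-Ob by 5.17 ± 0.54 and Ciita, the transactivator of the class, by 3.46 ± 0.78. Reads of H2 genes that resemble each other can be assigned to the wrong copy. Dendritic cell and lymphocyte markers were higher in the same 6 libraries too. Their mean sums were 219 and 122 CPM, against 4.59 and 5.61 CPM in culture, and their part in these calls was not tested. In MLC replicates 1 and 2 alone 3 members rose, and Ciita did not pass (log2FC 3.01, adjusted p 0.0666). MHC class I had fewer calls, with 1 of 16 higher, none lower and a median of -0.30 that became 0.14 after rescaling. The 1 call was absent without macrophage replicate 1 or 3, while 4 members fell in the fit of only the 9 libraries, and with library weights 6 rose and 4 fell.

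Interferon-stimulated genes showed a mixed picture, with 6 of 20 rising, 2 falling and a median log2FC of 0.42. Ifit3, an antiviral protein, was at 0.93, 0.76 and 2.96 log2 CPM in culture and at 3.55, 4.27 and 5.29 in MLCs (log2FC 2.81 ± 0.74, adjusted p 0.00539, 6 of 6 higher), and Ifi44 rose by 3.37 ± 0.91. Oas3, which senses double-stranded RNA, went the other way and fell by 4.00 ± 0.69. Cxcl10 was at or below 0.57 in all 9 libraries and did not pass. The number rising was 2 without macrophage replicate 1 and 3 without macrophage replicate 2 or MLC replicate 6, and 1 gene fell without any one of the macrophage libraries. With the replicate block 3 rose, and with library weights 10 rose and 4 fell. With log2(CPM + 1) 4 fell. In MLC replicates 1 and 2 alone 0 rose and 1 fell, with a log2FC of 2.50 for Ifit3 (adjusted p 0.10) and 3.54 for Ifi44 (0.0611).

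Of 17 chemokine genes tested, 5 rose (3 with log2(CPM + 1)) and 3 fell, with a median log2FC of 0.20 that became -0.01 without MLC replicate 3 and -0.28 in MLC replicates 1 and 2 alone. Ccl12, a ligand of CCR2, rose by 8.71 ± 1.20, from -0.34, -1.97 and 3.69 to 5.63, 9.80 and 11.02 log2 CPM (adjusted p 6.77e-06, 6 of 6 higher). Ccl4 fell by 4.08 ± 0.74, with all MLC libraries below all macrophage libraries. Cytokines and mediators of inflammation counted 7 of 16 higher and 1 lower (median 0.30), and that 1 was not called without macrophage replicate 1 or 3 or any one of MLC replicates 2 to 6, nor after rescaling or quantile normalization. The same call was absent with no filter on low values, the replicate block or eBayes without trend, and in MLC replicates 1 and 2 alone. Il1b was at -1.95, -3.62 and -3.62 log2 CPM in culture and at 3.59, 4.30 and 4.73 in MLCs. It was near absent from the cultured cells and present in all MLC libraries (log2FC 7.32 ± 0.74, adjusted p 8.05e-08, 6 of 6 higher). Tnfsf13b, the B cell factor BAFF, rose by 5.59 ± 1.06, and Tnf did not pass (log2FC -0.87, adjusted p 0.492). Neutrophils and monocytes make Il1b as well, and their markers were higher in the same 6 libraries.

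Complement genes split, with 6 of 17 rising, 5 falling and a median log2FC of 1.54. C1qb, a chain of the initiator C1q, was at 8.46, 7.30 and 7.30 log2 CPM in culture and 11.23, 12.12 and 12.39 in MLCs. It rose by 4.32 ± 1.08 (adjusted p 0.00342) in 6 of 6 libraries. C3, the central component, rose by 3.38 ± 0.78. Properdin, encoded by Cfp, fell by 3.91 ± 1.02 and the integrin chain Itgb2 by 1.82 ± 0.46. The number falling was 3 without macrophage replicate 1 or 2. With MLC replicates 1 and 2 alone 1 member rose and 2 fell, while C1qb (log2FC 4.41, adjusted p 0.0527), C3 (2.29, 0.143) and Itgb2 (-1.84, 0.0571) did not pass.

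Of 26 tested genes of disease-associated microglia, 13 fell (9 without macrophage replicate 1), 2 rose (1 without macrophage replicate 3, 4 after rescaling) and the median log2FC was -1.02. Lpl, a lipase that frees fatty acids from lipoproteins, was at 10.89, 9.92 and 9.23 log2 CPM in culture and at 3.03, 4.03 and 4.66 in MLCs. Its log2FC was -6.05 ± 0.54 (adjusted p 1.05e-08), with 6 of 6 libraries lower. Lgals3, the galectin of phagocytes, was at 13.39, 14.09 and 12.41 in culture and at 6.51, 7.26 and 7.93 in MLCs (log2FC -6.09 ± 0.72, adjusted p 6.88e-07, 6 of 6 lower). Both were abundant in every cultured library and far lower in every MLC library. Fabp5, a carrier of fatty acids, fell by 6.28 ± 0.99, the tetraspanin Cd9 by 1.35 ± 0.29 and the cytokine Spp1, or osteopontin, by 3.04 ± 0.47. Apoe was 1 of the 2 members that rose. It was at 7.69, 11.95 and 10.73 in culture and at 12.76, 14.80 and 16.25 in MLCs, a rise of 4.47 ± 0.98 (adjusted p 0.00114) with 6 of 6 libraries higher. In MLC replicates 1 and 2 alone its log2FC was 2.86 and did not pass (adjusted p 0.121).

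The MITF family and genes of cultured or fusing macrophages leaned the same way, with 7 of 19 lower, 3 higher and a median log2FC of -1.18. Mitf itself was at 6.39, 6.80 and 5.40 log2 CPM in culture and at 4.29, 4.73 and 5.01 in MLCs. It fell by 1.53 ± 0.33 (adjusted p 0.0011), with 6 of 6 libraries lower. The metalloproteinase gene Mmp19 fell by 3.11 ± 0.56, beside Gpnmb, Mmp12 and Atp6v0d2. Mmp9, stored in neutrophil granules, rose by 5.63 ± 1.20 and Chil3 rose as given above. Neither Mitf (log2FC -1.28, adjusted p 0.0626) nor Mmp9 (4.47, 0.0719) passed in MLC replicates 1 and 2 alone.

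Lysosomal genes fell more often than they rose, 15 against 6 of 40, but 9 against 7 after quantile normalization and 8 against 7 after rescaling. The median log2FC was -0.88. Ctsb, a cathepsin, was at 15.38, 15.52 and 14.19 log2 CPM in culture and at 11.26, 12.02 and 12.24 in MLCs. It was among the most abundant transcripts of cultured cells and fell by 3.10 ± 0.44 (adjusted p 1.02e-05) in 6 of 6 libraries. Atp6v1a, the catalytic subunit of the proton pump, was at 10.46, 10.84 and 10.16 in culture and at 6.69, 7.00 and 7.47 in MLCs (log2FC -3.46 ± 0.45, adjusted p 2.62e-06, 6 of 6 lower). Gla, alpha-galactosidase A, fell from 4.84, 5.03 and 4.80 to -3.62, -0.48 and 1.19 (log2FC -5.53 ± 1.00, adjusted p 0.000188, 6 of 6 lower). Ctsd, another cathepsin, fell by 3.07 ± 0.80 and did not pass after quantile normalization or in MLC replicates 1 and 2 alone. Ctsh, also a cathepsin, went up instead, by 2.39 ± 0.38. The number of lysosomal genes falling was 9 without macrophage replicate 1, 9 without macrophage replicate 2 and 5 in MLC replicates 1 and 2 alone.

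Promoters of some of these genes hold the palindrome TCACGTGA, which MITF and its relatives TFEB and TFE3 can bind in lysosomal genes. Letters were searched on both strands of RefSeq windows from 250 bases before to 50 bases after the gene start. Windows were matched for 33 of the 40 lysosomal genes, and 7 held the palindrome, namely Ctsa, Ctsd, Gla, Mcoln1, Atp6v0d1, Atp6v1a and Cln3, against 0.974% of all 32851 windows and 2.22% of those of genes tested. Of those 7, Ctsd, Gla, Atp6v1a and Atp6v0d1 fell, where 15 of the 40 lysosomal genes and 14.7% of all genes tested did. Ctsa (log2FC -0.45), Mcoln1 (0.51) and Cln3 (-0.76) did not pass. Cln3 fell in the fit of only the 9 libraries (adjusted p 0.0433) and with library weights (0.0145). Atp6v0d1 was not past the threshold without macrophage replicate 2 or 3 or MLC replicate 2 or 4, nor in MLC replicates 1 and 2 alone (adjusted p 0.153). It also missed after rescaling (log2FC -0.72, adjusted p 0.189), quantile normalization (0.0947) or with no filter on low values (0.0508). To show where the palindrome lies, the 250 bases before the starts of Ctsd, Gla and Atp6v1a follow on the strand of the gene with the palindrome in capitals, beside those of Hmgcs1, a gene of sterol synthesis taken up further on, where capitals mark TCACNCCAC, a form of the sterol response element found in 1.24% of all windows and in 1 of the 15 sterol synthesis genes with a window, Hmgcs1 itself. Coordinates are from GRCm38.p6 (RefSeq): chr7:142387828-142388077 on the minus strand for Ctsd, chrX:134601006-134601255 on the minus strand for Gla, chr16:44139260-44139509 on the minus strand for Atp6v1a and chr13:119690101-119690350 on the plus strand for Hmgcs1. Windows were chosen after the matches were seen, and all those printed are of genes that fell. A match is a description and not a binding site, and a window without one says nothing about the factor. Over all genes tested, 9329 of 12061 had a window, and no motif shares of the rising and falling genes are given.
Ctsd: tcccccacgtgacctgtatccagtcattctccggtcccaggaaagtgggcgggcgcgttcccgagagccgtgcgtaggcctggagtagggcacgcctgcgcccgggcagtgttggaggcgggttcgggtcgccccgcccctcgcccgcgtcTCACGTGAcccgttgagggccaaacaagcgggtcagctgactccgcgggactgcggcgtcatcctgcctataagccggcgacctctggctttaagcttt
Gla: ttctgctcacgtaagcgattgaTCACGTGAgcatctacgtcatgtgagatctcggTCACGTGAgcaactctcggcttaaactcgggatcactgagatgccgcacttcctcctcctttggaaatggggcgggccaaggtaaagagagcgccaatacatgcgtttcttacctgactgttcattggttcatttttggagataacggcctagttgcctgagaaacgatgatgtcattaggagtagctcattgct
Atp6v1a: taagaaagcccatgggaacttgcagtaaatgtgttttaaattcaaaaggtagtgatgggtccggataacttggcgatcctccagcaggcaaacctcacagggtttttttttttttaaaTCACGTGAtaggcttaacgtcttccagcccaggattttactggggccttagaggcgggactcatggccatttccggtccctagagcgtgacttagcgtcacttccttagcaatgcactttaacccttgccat
Hmgcs1: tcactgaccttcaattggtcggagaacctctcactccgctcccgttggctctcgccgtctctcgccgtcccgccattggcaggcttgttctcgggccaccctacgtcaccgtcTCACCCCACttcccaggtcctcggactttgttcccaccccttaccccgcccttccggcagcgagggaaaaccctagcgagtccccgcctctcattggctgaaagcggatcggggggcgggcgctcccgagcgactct

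Sterol synthesis was the most uniformly lower pathway among the lists. Of 22 tested genes, 18 fell and none rose, with a median log2FC of -2.53, which was -2.09 after rescaling and -2.45 in MLC replicates 1 and 2 alone, where 11 fell. After rescaling 13 fell and 1 rose. Srebf2, the transcription factor that drives the pathway, was at 7.44, 7.74 and 8.01 log2 CPM in culture and at 2.02, 2.64 and 3.32 in MLCs. Its log2FC was -5.11 ± 1.06 (adjusted p 0.000723), with 6 of 6 libraries lower. Sqle, squalene epoxidase, was at 7.93, 7.85 and 7.21 in culture and at 2.10, 3.27 and 4.30 in MLCs (log2FC -4.43 ± 0.64, adjusted p 1.09e-05, 6 of 6 lower). Hmgcs1, the synthase at the entry of the pathway, was at 7.84, 7.91 and 6.42 in culture and at 4.56, 4.94 and 5.19 in MLCs (log2FC -2.47 ± 0.34, adjusted p 5.38e-06, 6 of 6 lower). Fdps fell by 3.16 ± 0.37 and Idi1 by 2.91 ± 0.42.

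Handling of lipid moved in both directions, with 14 of 25 genes lower, 6 higher and a median log2FC of -1.59. Abca1, which loads cholesterol onto apolipoproteins, was at 3.02, 3.35 and 2.53 log2 CPM in culture and at 8.66, 8.79 and 9.30 in MLCs, a rise of 5.90 ± 0.47 (adjusted p 1.61e-09) in 6 of 6 libraries. Abcg1, its partner, rose by 3.60 ± 0.72 (2.12 without macrophage replicate 3) and Apoc1 by 5.27 ± 0.74, together with Apoe. Among the members that fell were the acid lipase Lipa by 3.95 ± 0.40, the lipid droplet protein Plin2 by 2.94 ± 0.30 and Soat1, which esterifies cholesterol, by 2.31 ± 0.41. Lipa was at 12.39, 12.75 and 11.60 in culture and at 8.08, 8.29 and 8.58 in MLCs, with no overlap. In fatty acid synthesis 1 of 17 genes rose (0 without macrophage replicate 1, 2 after rescaling or with log2(CPM + 1)) and 3 fell, near the 14.7% of all genes, and the median of -0.36 became 0.09 after rescaling.

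Part of the genes of energy metabolism were lower in the brain. In glycolysis 12 of 23 genes fell and 2 rose (median -2.07), and without macrophage replicate 3 or in MLC replicates 1 and 2 alone 6 fell. Pgk1, phosphoglycerate kinase, was at 8.47, 7.94 and 9.28 log2 CPM in culture and at 5.69, 6.37 and 6.69 in MLCs (log2FC -2.28 ± 0.36, adjusted p 3.17e-05, 6 of 6 lower). Aldoa fell by 2.85 ± 0.56, Gapdh by 2.14 ± 0.35 and the pyruvate kinase gene Pkm by 3.62 ± 0.78. The early enzyme Hk2 was different and rose by 1.92 ± 0.44, as did the glucose transporter Slc2a3 by 2.85 ± 0.78, but neither passed in MLC replicates 1 and 2 alone. In the respiratory chain 13 of 31 genes fell and none rose (median -0.81), all by less than a log2FC of 2. Cox4i1, a subunit of complex IV, fell by 1.52 ± 0.25 (adjusted p 6.97e-05) and Sdhc, of complex II, by 1.83 ± 0.32 (adjusted p 0.000116), both in 6 of 6 libraries. The number falling was 8 without macrophage replicate 3, 6 after quantile normalization, 5 after rescaling and 5 in MLC replicates 1 and 2 alone.

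Defence against oxidation and iron storage followed. Of 19 glutathione peroxidases and NRF2 targets, 13 fell, none rose (1 without MLC replicate 2) and the median log2FC was -1.88. Prdx1, a peroxiredoxin, was at 12.20, 12.66 and 11.64 log2 CPM in culture and at 8.19, 8.26 and 8.69 in MLCs. Its log2FC was -3.80 ± 0.30 (adjusted p 1.6e-09), with 6 of 6 libraries lower. Ftl1, the ferritin light chain, was at 15.49 to 16.40 in culture and at 12.35, 12.52 and 12.83 in MLCs (log2FC -3.38 ± 0.45, adjusted p 4.29e-06, 6 of 6 lower). Catalase, encoded by Cat, fell by 3.16 ± 0.39, Txnrd1 by 3.71 ± 0.55 and heme oxygenase, encoded by Hmox1, by 3.56 ± 0.64. Of this list, 9 members fell in MLC replicates 1 and 2 alone.

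Some genes of cell division were lower, but the counts leaned on single libraries and on scaling. In the DNA replication list 11 of 25 genes fell and none rose, with a median log2FC of -2.08, and the number was 5 without macrophage replicate 1, 19 without replicate 2 and 6 without replicate 3, and 7 after rescaling against 16 with log2(CPM + 1). Pcna, the sliding clamp, was at 8.64, 7.59 and 8.69 log2 CPM in culture and at 5.72, 6.14 and 6.41 in MLCs. It fell by 2.20 ± 0.33 (adjusted p 1.72e-05) in 6 of 6 libraries, as did the nuclease Fen1 by 2.54 ± 0.54 and Rrm1, of ribonucleotide reductase, by 2.08 ± 0.43. In the mitosis list 6 of 25 genes fell and none rose (median -1.78), against 13 without macrophage replicate 2, 0 without macrophage replicate 3 and 3 without MLC replicate 1, 2 or 3. After rescaling or with no filter on low values 2 mitosis genes fell, and with log2(CPM + 1) 10 did. Mki67 was at 5.58, 3.79 and 7.20 in culture and at 3.41, 4.61 and 5.69 in MLCs. The groups overlapped and it did not pass (log2FC -0.82, adjusted p 0.55), and macrophage replicate 3 held the most and replicate 2 the least of the cultured libraries. Among promoters of mitosis genes, 16 of the 21 with a window held the cell cycle letters TTTGAA on either strand, against 17.9% of all windows and 15.1% of those of genes tested.

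Immediate early and dissociation genes, which can respond to tissue handling, counted 6 of 26 higher and 2 lower (median 0.99), against 17.4% and 14.7% of all genes tested. Btg2 was at 6.03, 6.62 and 5.34 log2 CPM in culture and at 7.15, 8.34 and 9.00 in MLCs (log2FC 2.21 ± 0.50, adjusted p 0.0016, 6 of 6 higher). The small GTPase Rhob rose by 2.69 ± 0.49 and Nfkbiz by 2.80 ± 0.41, whereas the stress factor Atf3 fell by 4.88 ± 0.59. Fos did not pass (log2FC -0.23, adjusted p 0.822). The number rising was 3 without macrophage replicate 1, and 1 fell without macrophage replicate 1 or 2 or MLC replicate 3 or 4. In the fit of only the 9 libraries 10 rose and with library weights 17, where 2765 and 4013 of all genes tested did. Only the MLCs went through brain dissociation, and its effect on these genes cannot be told apart from that of the brain.

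**Figure D4:**
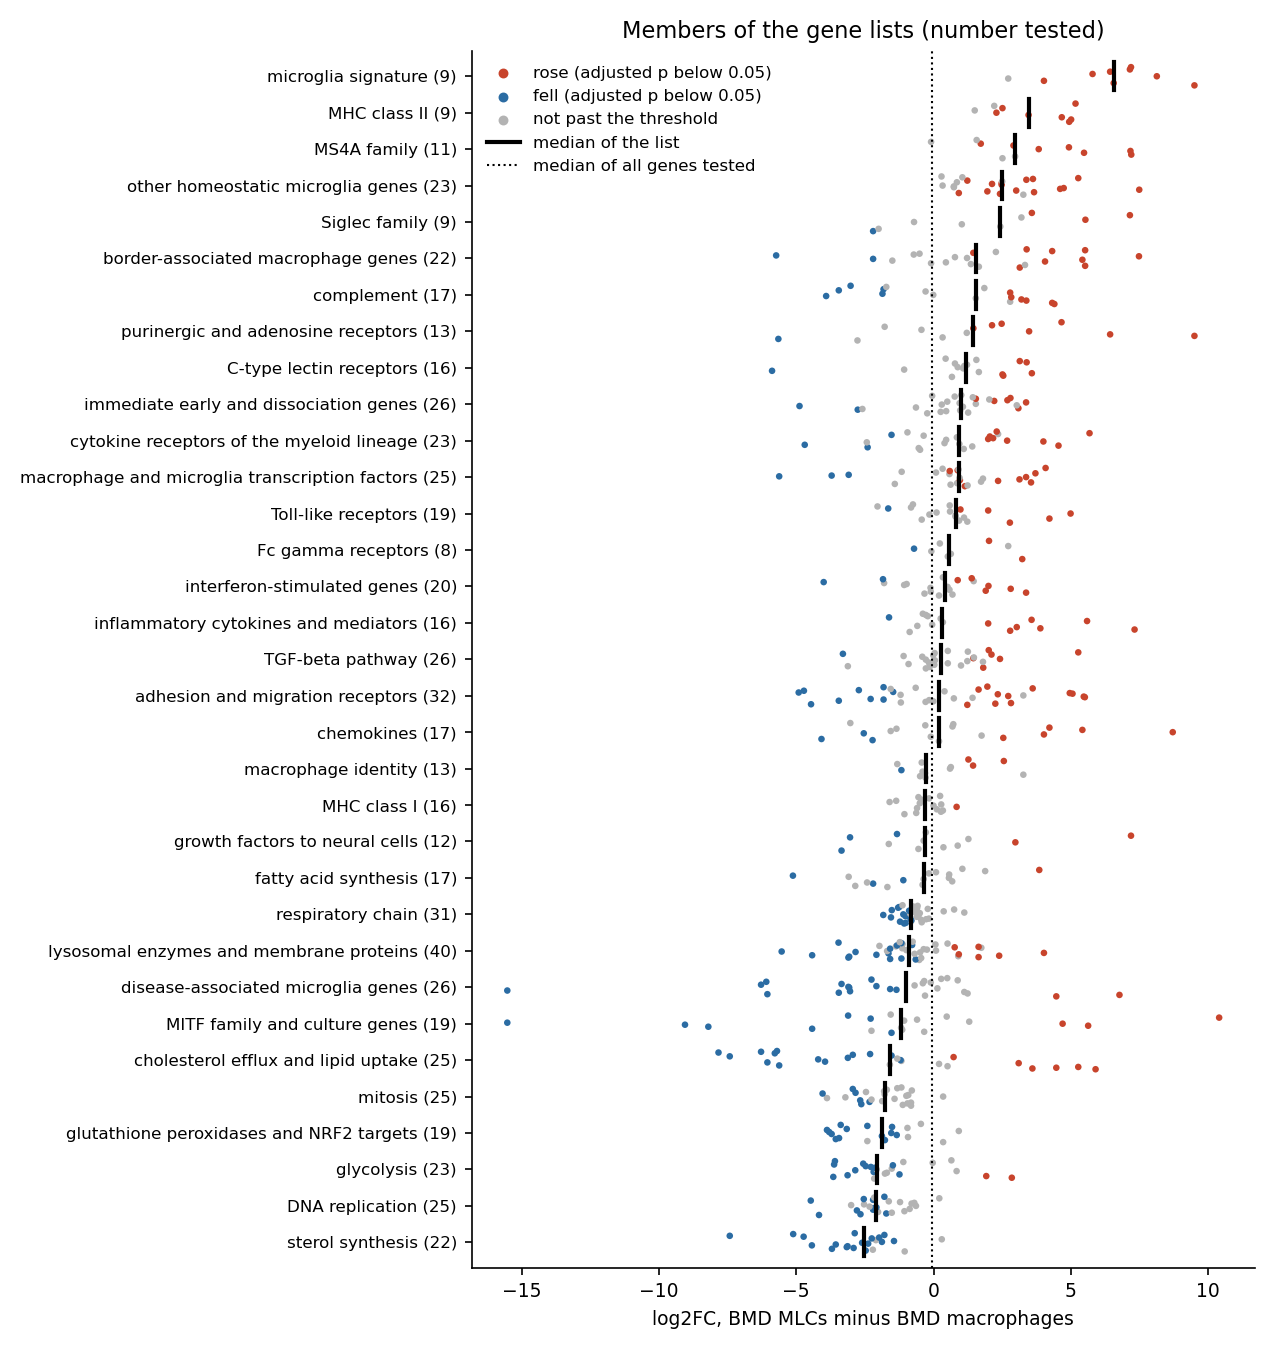
Log2FC (BMD MLCs minus BMD macrophages) of every tested member of the gene lists, with the median of each list as a bar and the median of all genes tested (-0.05) as a dotted line. Among the lists shown, medians run from sterol synthesis at -2.53 to the microglia signature at 6.56.

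In the 6 lists of cell surface receptors taken first, 5 of 76 members fell, where 14.7% of all genes tested did. This does not hold for every receptor list, since 3 of 23 cytokine receptors and 9 of 32 adhesion and migration receptors fell, as given further on. Among purinergic and adenosine receptors 7 of 13 rose and 1 fell (median 1.45). The ATP-gated channel P2rx7 rose by 1.45 ± 0.37, from 6.24, 6.45 and 6.21 to 7.55, 7.70 and 8.07 log2 CPM (adjusted p 0.00412, 6 of 6 higher), and P2ry2 was the member that fell, by 5.65 ± 1.28. Toll-like receptors and their partners counted 5 of 19 higher and 1 lower (median 0.80), with Tlr1 up by 2.78 ± 0.33 and the flagellin receptor Tlr5 by 4.22 ± 0.98. Of 8 Fc gamma receptor genes, 2 rose (1 without macrophage replicate 3) and 1 fell, with a median of 0.58. That 1 was not called without any one of the macrophage libraries or MLC replicates 1, 2 or 5. After rescaling 4 rose and none fell, and after quantile normalization 3 rose and none fell. The high-affinity receptor Fcgr1 rose by 3.23 ± 0.55. The MS4A family of membrane proteins rose widely, with 7 of 11 higher, none lower and a median of 2.97. Ms4a4c was at -0.95, -0.32 and -0.12 log2 CPM in culture and at 6.34, 6.76 and 7.19 in MLCs (log2FC 7.17 ± 0.56, adjusted p 1.3e-09, 6 of 6 higher), although reads of such similar copies are hard to assign. Siglecs, which bind sialic acid, counted 3 of 9 higher and 1 lower (2 without macrophage replicate 3), with a median of 2.43. In the C-type lectins 5 of 16 rose and 1 fell (median 1.17), with Clec4a3 up by 3.58 ± 0.62, and 3 rose without macrophage replicate 1 and 2 without macrophage replicate 3.

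Receptors for cytokines and for migration changed in both directions. Cytokine receptors of the myeloid lineage counted 8 of 23 higher and 3 lower (median 0.94). Il13ra1, a chain of the receptor for IL-4 and IL-13, was at 3.21, 4.46 and 4.11 log2 CPM in culture and at 7.51, 7.93 and 8.27 in MLCs (log2FC 4.00 ± 0.45, adjusted p 3.29e-07, 6 of 6 higher). Il1r2, the decoy receptor of IL-1, rose by 5.68 ± 1.26 and Il3ra fell by 4.69 ± 1.35. Adhesion and migration receptors counted 12 of 32 higher and 9 lower, with a median of 0.20 that was -0.09 in MLC replicates 1 and 2 alone. Ccr1, a receptor for inflammatory chemokines, was at 4.75, 5.57 and 3.14 in culture and at 9.53, 10.14 and 10.33 in MLCs. Its log2FC was 5.51 ± 0.40 (adjusted p 5.58e-10), with 6 of 6 libraries higher. Ccr2, which brings monocytes into tissue, rose by 5.47 ± 1.00. The semaphorin receptor Plxna1 fell by 4.91 ± 1.01, Sema4d by 2.72 ± 0.46 and the hyaluronan receptor Cd44 by 1.82 ± 0.40. Ccr1, Ccr2 and Il1r2 are also genes of monocytes or neutrophils, whose marker sums were higher in the same 6 libraries. Growth factors that act on neural cells counted 2 of 12 higher and 3 lower, with a median of -0.32 that became 0.11 after rescaling, and Grn, or progranulin, fell by 1.33 ± 0.38 but did not pass after rescaling (log2FC -0.88, adjusted p 0.101) or in MLC replicates 1 and 2 alone (-1.10, 0.148).

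Of the 10 well-expressed genes with the largest SD among the 6 MLC libraries, 5 were Y-linked or globin genes. The largest SDs were those of the Y-linked Eif2s3y, at -1.28, 6.66 and 7.74 log2 CPM (lowest, median, highest), and Ddx3y, at -0.13, 7.23 and 7.91, with replicate 3 lowest in both. The globin gene Hbb-bs ran from 2.76 to 7.98, Hba-a1 from 3.01 to 8.29 and Hba-a2 from 3.49 to 8.16. The chemokine Ccl12 ran from 5.63 to 11.02 and the iron exporter Slc40a1 from 2.87 to 7.67. Mef2c, a factor of microglia with the next SD after the Y-linked genes, ran from 1.15 to 7.64 around a median of 6.38, with replicate 5 lowest. It rose by 3.13 ± 1.09 (adjusted p 0.0302) although the groups overlapped, and adjusted p was 0.223 without macrophage replicate 2, 0.0579 without macrophage replicate 3, and 0.0659, 0.0636 and 0.0594 without MLC replicates 3, 4 and 6. It was also 0.0739 in the fit of only the 9 libraries, 0.0512 with no filter on low values, 0.0937 with library weights (log2FC 1.90) and 0.10 in MLC replicates 1 and 2 alone (2.81). Ss18, a chromatin factor, was at 2.25 in replicate 3 and between 5.78 and 6.37 in the others.

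ER-Hoxb8 cells, which descend from conditionally immortalized progenitors, offer the most similar comparison in the series, with 6 MLC and 3 macrophage libraries of their own and none shared. By their labels these macrophages are Cas9 heterozygous and these MLCs wild type, whereas all BMD libraries are wild type, so that cell source and genotype cannot be told apart in what follows. There 2290 of the genes tested were DEGs, and 1110 were DEGs in the same direction in both comparisons, 54.9% of the BMD and 48.5% of the ER-Hoxb8 list. The difference between the changes of the cell sources was tested directly, and 312 genes (2.59%) passed at an adjusted p below 0.05 and a difference of at least 2. Of these, 104 had the more positive change in BMD cells and 208 the more negative. Without macrophage replicate 3 the count was 201, and in MLC replicates 1 and 2 alone 156. Columns of the ER-Hoxb8 MLCs are named either GFPHox or WTHox under titles that differ only in replicate number, so that group may be mixed. With the GFPHox libraries as the only ER-Hoxb8 MLCs the count was 590, and with the WTHox libraries 391.

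Immune genes were among those that differed. Cxcl10, a chemokine that interferon induces, changed by 0.69 in BMD cells and by 9.88 in ER-Hoxb8 cells, a difference of -9.19 ± 1.09 (adjusted p 6.43e-06). Gbp2, a GTPase that interferon gamma induces, gave 0.50 and 10.68, a difference of -10.18 ± 1.28 (adjusted p 1.42e-05). As a group, 11 of 20 interferon-stimulated genes and 9 of 16 MHC class I genes differed, with medians of 0.42 and -0.30 in BMD cells against 3.96 and 2.07 in ER-Hoxb8 cells. Without macrophage replicate 3 the interferon count was 7. In MHC class II 4 of 9 differed, with medians of 3.46 and 4.21, and H2-Aa gave 4.94 and 12.41. The microglia signature was close in both, with medians of 6.56 and 6.67 and 1 gene, Gpr34, past the test. Gpr34 changed by 8.13 and 3.47, a difference of 4.65 (adjusted p 0.0414) that did not pass without macrophage replicate 2 (0.119) or 3 (0.0715) or MLC replicate 3 (0.058), 4 (0.0606), 5 (0.0626) or 6 (0.0628), nor with no filter on low values (0.0649), the replicate block (0.055), eBayes without trend (0.0529), only the GFPHox libraries (0.0503) or MLC replicates 1 and 2 alone (0.308). Fabp7, a fatty acid carrier, fell by 5.70 in BMD cells and rose by 4.97 in ER-Hoxb8 cells, and Gnb4, a G protein subunit, went from -4.93 to 4.13. Mcoln3, at least 313-fold lower in BMD MLCs, averaged -2.72 and -2.56 log2 CPM in ER-Hoxb8 macrophages and MLCs. In the other direction, G0s2, an inhibitor of lipolysis, changed by 6.13 in BMD cells and by -2.33 in ER-Hoxb8 cells, Tmem40 by 5.05 and -2.47, and Mmp9 by 5.63 and -1.88. The lectin Mgl2 changed by 3.39 and -4.21, although its rise in BMD cells had an adjusted p of 0.0728 without macrophage replicate 1 and 0.0592 without macrophage replicate 3. Gpr97, an adhesion receptor, gave 2.82 (adjusted p 0.0609, not past the threshold) and -4.87. Its rise passed in the fit of only the 9 libraries (0.000572), with log2(CPM + 1) (0.00385), after rescaling (0.0309), with library weights (3.08e-05) and without microglia replicates 8 and 9 (0.0379). None of these 5 differences, then 6.22 to 6.97 in size, passed in MLC replicates 1 and 2 alone (adjusted p 0.122 for G0s2, 0.0967 for Tmem40, 0.144 for Mmp9, 0.0523 for Mgl2 and 0.0973 for Gpr97), nor did the rises of G0s2, Tmem40, Mmp9 and Mgl2 in BMD cells. The neutrophil marker sum of ER-Hoxb8 MLCs ran from 287 to 46600 CPM, and its part in these differences was not tested.

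**Figure D5:**
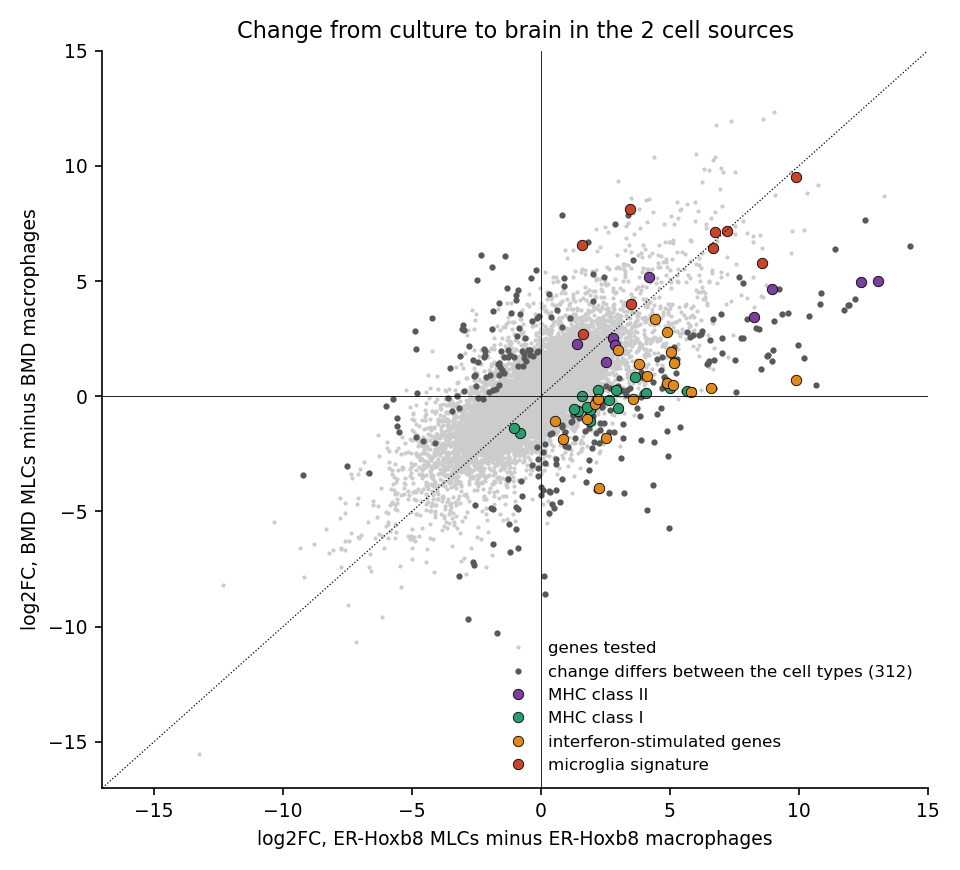
Log2FC from culture to brain in BMD cells (vertical) against that in ER-Hoxb8 cells (horizontal) for each gene tested, with the 312 genes whose change differs in dark gray and 4 gene lists in color. MHC class I and interferon-stimulated genes lie mostly to the right of the diagonal, while the microglia signature lies near it.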

How the data were processed

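RNA sequencing of 6 BMD MLC libraries, sorted from brain, and 3 BMD macrophage libraries, grown for 7 days in vitro, was compared. Each library is 1 sample and 1 column of the series' table, and none was left out. The authors trimmed reads, pseudoaligned them to the mouse GRCm39 transcriptome with kallisto 0.46.0, summed them per gene with tximport and normalized them with edgeR (TMM). The deposited values are log2 CPM, given by the authors for 29957 entries, of which 1 had no gene name and was left out (0.00226% to 0.0582% of a library). The 27 libraries of 5 groups (BMD and ER-Hoxb8 macrophages, BMD and ER-Hoxb8 MLCs, microglia) share a lowest value of -3.62, which stands for 0 counts at an assumed prior count of 2 and a mean effective depth of 24.5 M counts. CPM was computed as 2 to the power of the value less the same power of the lowest value. Depth, inferred with that prior count, ran from 17.4 to 26.9 M counts in the MLCs and from 24.8 to 43.9 M in the macrophages. A gene with no more than 3 counts was taken to be at the floor.

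Group means of the 27 libraries were fitted to the deposited log2 values with limma 3.58.1 in R 4.3.3 (eBayes with trend, no covariate). A gene was tested if 3 or more of the 9 libraries exceeded a CPM of 1 (12061 genes), and p-values were adjusted by Benjamini-Hochberg over them. A gene rose or fell at an adjusted p below 0.05, and was a DEG if its log2FC was also at least 2 in either direction. Errors after ± are standard errors. The difference between the change in BMD and in ER-Hoxb8 cells was a contrast of the same fit with the same thresholds. Depth and summed CPM were compared by exact permutation tests over all 84 assignments of libraries (two-sided), whose smallest p is 0.024. Tables were made in Python 3.11.15 with numpy 2.4.6, pandas 2.3.3 and scipy 1.17.1, and figures with matplotlib 3.10.9. The fit was tested on simulated data.

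Genes were named by a rule: the 15 largest changes in each direction among DEGs whose groups do not overlap, members of gene lists, the 5 largest differences from ER-Hoxb8 cells in each direction, and the 10 largest SDs among MLCs at a mean log2 CPM above 5. Members and lists were chosen with earlier results of these data known, and counts, sums, means and medians of lists were described without a test. Of the genes in lists, Clec6a, Meg3, Hbb-b1, Hbb-b2 and Xist were not in the table. Promoter sequences, 250 bases before to 50 after the start of a gene, were searched on both strands for 9 motifs. Matches are described for single promoters and for 3 lists. Motif shares of rising and falling genes are not given, and 9329 of the 12061 genes could be matched to a promoter.

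The alternatives tried were a fit of only the 9 libraries, 2 other filters on low values, log2(CPM + 1), quantile normalization, libraries rescaled to the same total CPM, replicate number as a block, library weights, eBayes without trend, a log2FC limit of 1, each library left out in turn, only the GFPHox or only the WTHox libraries, and no microglia replicates 8 and 9. Use of MLC replicates 1 and 2 alone was chosen after seeing the data, because their neutrophil marker sums were the lowest. The groups, tests and other alternatives were planned in advance, although earlier results of these data were known when members and lists were chosen.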

Additional observations from a re-analysis of the deposited data

Results flagged for a closer look

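In 192 groups of the 6 MLC libraries (173 named genes and 19 summary values), 15 had 1 library far from the others, where chance gives about 1 in 20. A library was taken to be far when its gap to the nearest other library filled more of the group's range than a 95% limit for 6 values allows. That rate does not hold for genes chosen for their spread, such as Ddx3y, Eif2s3y, Ss18 and Amica1, and in Gpnmb, Lat and Npy the 5 other libraries were at the floor. Replicate 3 was the library apart in 7 of 12 such genes.

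Replicate 3 lay at a mean distance of 178 from the other MLC libraries, against 113 to 130 for the rest (gap 0.74 of the range). By 1 minus the Spearman correlation it was at 0.108, against 0.0509 to 0.0718 (0.63). The Y-linked genes were lowest there, with Ddx3y at -0.13 log2 CPM against 6.63 to 7.91 (0.84) and Eif2s3y at -1.28 against 6.57 to 7.74 (0.87). Ss18, a chromatin factor, was at 2.25 against 5.78 to 6.37 (0.86), and the microglia gene Tmem119 at 7.74 against 9.60 to 10.49 (0.68). Plk2, a kinase, was at the floor of -3.62 against 0.55 to 2.33 (0.70). Aldoc, a glycolytic enzyme, was higher there, at 4.95 against 3.56 to 4.02 (0.67). Npy, a neuropeptide, was at -2.43 in replicate 3 and at the floor in the others (1.0).

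In replicate 5 the endothelial and mural markers summed to 17.4 CPM, against 30.5 to 36.4 CPM (0.69). Pecam1, an endothelial adhesion gene, was at 3.23 log2 CPM there against 4.07 to 4.56 (0.63). Gpnmb was at -2.33 in that library, and the T cell adaptor Lat at -1.46, where the 5 others were at the floor (1.0 for both). Spp1, or osteopontin, was highest in replicate 2, at 10.27 against 8.29 to 9.02 (0.63). Amica1, an adhesion gene, was highest in replicate 1, at 10.43 against 5.57 to 7.25 (0.65).

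The change from culture to brain differed between BMD and ER-Hoxb8 cells in 24 named genes, by the direct test of the difference, which is given here as BMD minus ER-Hoxb8. By their labels ER-Hoxb8 macrophages are Cas9 heterozygous, while the other 3 groups are wild type. Among interferon genes it was -9.19 for Cxcl10, -10.18 for Gbp2 and -6.26 for Oas3. Antigen presentation gave -7.47 for H2-Aa, -4.28 for Cd74 and -4.82 for its regulator Ciita. For genes of lipid handling the values were -6.38 (Apoe), -10.67 (Fabp7), 8.46 (G0s2) and 2.34 (Abca1). Negative values also belonged to the G protein subunit Gnb4 (-9.06) and the inhibitor Id3 (-8.57), while Ccl4 (-4.18), Atf3 (-3.03) and Col1a1 (-2.69) differed by less. The fit gave -8.75 for the lysosomal channel Mcoln3, -7.93 for the phosphodiesterase Pde1c, -6.82 for Npy and -4.65 for Flrt2, which are not exact sizes because no BMD MLC library held more than 3 counts of them. Positive values belonged to the receptors Gpr97 (7.69) and Gpr34 (4.65), the lectin Mgl2 (7.60), the protease Mmp9 (7.52) and Tmem40 (7.52).

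Of the 24 differences, 11 passed in every setting and with each library left out. With 1 BMD library left out, 6 did not always pass. Abca1 had an adjusted p of 0.098 and 0.164 without macrophage replicates 1 and 3, and 0.0646, 0.068, 0.0691, 0.0619, 0.0713 and 0.0637 without MLC replicates 1 to 6. It also missed with the filter of 6 libraries (0.0512), no filter (0.0726), rescaling (0.0552), the replicate block (0.061) and eBayes without trend (0.0675), and its difference was 1.43 with library weights and 1.86 with only the GFPHox libraries. For Atf3 it was 0.0729, 0.0985 and 0.0769 without macrophage replicates 1 to 3, and 0.0567, 0.0611, 0.0576 and 0.065 without MLC replicates 1, 2, 3 and 6, and it missed with no filter (0.0582), the replicate block (0.0566) and only the WTHox libraries (0.0623). Col1a1, a collagen of fibroblasts, gave 0.19 without macrophage replicate 1 and 0.062, 0.0604, 0.0517, 0.0733 and 0.065 without MLC replicates 1, 2, 3, 5 and 6, and it missed with log2(CPM + 1) (0.124), quantile normalization (0.089), rescaling (0.061), the replicate block (0.0581) and only the WTHox libraries (0.0743). Gpr34 missed without macrophage replicate 2 (0.119) or 3 (0.0715) or MLC replicate 3 (0.058), 4 (0.0606), 5 (0.0626) or 6 (0.0628), and with no filter (0.0649), the replicate block (0.055), eBayes without trend (0.0529) and only the GFPHox libraries (0.0503). Ccl4 (0.0871) and Npy (0.0651) missed without macrophage replicate 3, and with only the WTHox libraries Ccl4 (0.0607) and Ciita (0.052) did. In MLC replicates 1 and 2 alone these 6 missed, as did Ciita (0.0597), Id3 (0.0665), G0s2 (0.122), Gpr97 (0.0973), Mgl2 (0.0523), Mmp9 (0.144) and Tmem40 (0.0967).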

How the results depend on the processing

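The count of DEGs, 2021, stayed within 1.5 times under each other normalization, filter, variance model and library weighting tried, and every DEG shared with an alternative kept its sign. It was 1137 in MLC replicates 1 and 2 alone, a setting chosen after seeing the data, of which 1019 were shared, and fewer samples lower such a count. It was 3514 at a log2FC of at least 1, where the wider limit admits more genes. With the replicate block it was 1858 (1110 higher, 748 lower), and changes of libraries with the same number correlated by -0.01, 0.06 and -0.07. With 1 library left out it ran from 1474 (macrophage replicate 3) to 2034 (MLC replicate 5).

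Genes that rose, 2103, became 4013 with library weights and 863 in MLC replicates 1 and 2 alone, and ran from 1370 (without macrophage replicate 3) to 2004 with 1 library left out. Genes that fell, 1771, became 2901 in a fit of only the 9 libraries, 956 after rescaling to the same total CPM, 3823 with library weights and 811 in MLC replicates 1 and 2 alone, with 1139 (without macrophage replicate 3) to 1669 with 1 library left out. Rescaling moved the median log2FC from -0.05 to 0.40, and library weights were 6.01, 0.94 and 0.45 for macrophage replicates 1 to 3. Genes that differed from ER-Hoxb8 cells, 312, became 1307 with library weights, 590 with only the GFPHox libraries and 156 in MLC replicates 1 and 2 alone, with 201 (without macrophage replicate 3) to 354 with 1 library left out. For these counts the cause was not tested.

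The mean distance among MLC libraries, 132, ran from 109 (without replicate 3) to 141, and was 0.0711 as 1 minus the Spearman correlation, which is another scale. Of 173 named genes, 173 kept their call without trend, 171 with the replicate block, 169 after rescaling, 169 with log2(CPM + 1), 168 after quantile normalization, 166 in the fit of 9 libraries, 164 without macrophage replicate 3, 162 with library weights and 144 in MLC replicates 1 and 2 alone. With no filter on low values 170 kept it, with the filter of 6 libraries 168 of 169 tested, and with any other BMD library left out 169 to 172. In MLC replicates 1 and 2 alone the 29 others were no longer past the threshold, while with library weights 10 passed in addition and 1 was lost. None of them reversed past the threshold in any setting. At these depths 3 counts lie at 0.0829 to 0.1368 CPM, so smaller values could not be told from 0.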
